A study of Mus musculus with 69 samples.

Results

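Hk1, Hk2 and Hkdc1, genes of the hexokinase family, and 7 genes of later steps of glycolysis, Pfkl, Pfkp, Pfkfb3, Aldoa, Pgk1, Pkm and Ldha, were followed in RNA sequencing of mouse kidney. These 10 genes were found by symbol among the 24411 genes of the count table, and each of the 10 passed the minimum of 2 counts in all over 69 libraries, as did 21175 genes, which were tested. Hkdc1 was chosen on its opposite log2 fold changes after ischemia and volume depletion, which are taken to be those of Hoxb7Cre males, so its responses there are described and carry no test.

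Every mouse carried 1 copy of a Rosa26 allele of Uprt, a uracil phosphoribosyltransferase that puts 4-thiouracil (4-TU) into new RNA, and a Cre that removed the stop cassette before it. All mice, controls included, were given 430 mg/kg of 4-TU by intraperitoneal injection, and their kidneys were taken 4 hours later. The genotype Hoxb7Cre;UPRTf/+ expresses Uprt along the collecting duct, and Atp6b1v1Cre;UPRTf/+, spelled thus in the labels and called Atp6v1b1Cre below, expresses it in intercalated cells and in cells with both principal and intercalated markers, with a few interstitial cells besides. The mice were on a C57BL/6J background, and no gene of glycolysis was manipulated in any group. Tagged RNA was biotinylated and pulled down in 48 libraries. A further 21 libraries, from control mice of both genotypes, held total kidney RNA, which is not restricted to a cell type. Pulldowns came from control mice, from mice 24 hours after both renal pedicles were clamped for 10 minutes (iAKI in the labels, ischemia below) and from mice after 72 hours of restricted water and food (vAKI, volume depletion below). Mice of 5.5 months gave 4 control, 4 ischemic and 3 volume-depleted libraries in Hoxb7Cre males and 4, 3 and 4 in Atp6v1b1Cre males. In females of that age there were 4, 3 and 4 libraries in Hoxb7Cre and 4, 3 and 3 in Atp6v1b1Cre, and total RNA came from 8 males and 8 females. A further 2 female Hoxb7Cre and 3 male Atp6v1b1Cre control pulldowns, with 2 and 3 total RNA libraries, were of mice of 3 months. The labels do not say whether each library was a separate mouse, so p-values measure the spread between libraries.

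Hexokinases put a phosphate on glucose and so hold it in the cell, and most tissues rely on Hk1 or Hk2, while Hkdc1 encodes a related protein that was recognised late. Phosphofructokinase (Pfkl and Pfkp encode subunits) takes the committed step of glycolysis, and Pfkfb3 makes fructose 2,6-bisphosphate, its strong activator. Aldoa, Pgk1 and Pkm encode aldolase, phosphoglycerate kinase and pyruvate kinase, and Ldha the lactate dehydrogenase subunit that favours lactate. In the kidney, proximal tubules live mostly on fatty acids and make glucose, whereas the collecting duct and other distal segments are known for glycolysis.

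The libraries held 12618062 to 30305464 counts, with a median of 20868430, and values below are CPM, counts scaled by library size in the same way over all 69 libraries. All 6 principal cell markers were higher in Hoxb7Cre control pulldowns than in total RNA. Of the 6 intercalated cell markers, 3 were higher there and 2 lower. In Atp6v1b1Cre control pulldowns 4 of the 6 intercalated cell markers were higher and 1 lower, and 2 of the 6 principal cell markers were higher and 1 lower. Over all genes, 66.6% and 63.8% differed in these comparisons, up or down. Proximal tubule markers were not absent from the pulldowns, with a summed level of 1724 to 4437 CPM in Hoxb7Cre and 1500.0 to 4390.0 CPM in Atp6v1b1Cre control pulldowns against 8466 to 16040.0 CPM in total RNA. In Hoxb7Cre males the 6 principal cell markers summed to 2694 to 3439 CPM in controls, 1005 to 1254 CPM after ischemia and 1110.0 to 1213 CPM after volume depletion, and 5 and 6 of the 6 fell.

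Hk1 (chr10:62268855-62379908 of GRCm38) and Hkdc1 (chr10:62383137-62422491) lie next to each other on the minus strand, 3228 bases apart. All 10 genes matched the table of promoters by symbol. Promoters of the genes that the results turn on most are shown, from RefSeq (GRCm38.p6), each from 250 bases before to 50 bases after a start of transcription, with capitals for the core of the hypoxia response element (ACGTG or GCGTG, read on both strands). Hkdc1 has 1 promoter in the table, Pfkfb3 has 2 and Ldha has 2, of which the first of each is given.
Hkdc1, chr10:62422408-62422707, minus strand: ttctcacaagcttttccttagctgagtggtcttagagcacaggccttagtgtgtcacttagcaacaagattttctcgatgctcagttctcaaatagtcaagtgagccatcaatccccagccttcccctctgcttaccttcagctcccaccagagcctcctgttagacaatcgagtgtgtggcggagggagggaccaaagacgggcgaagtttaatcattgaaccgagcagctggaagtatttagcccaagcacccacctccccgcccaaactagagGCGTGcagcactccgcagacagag
Pfkfb3, chr2:11553880-11554179, minus strand: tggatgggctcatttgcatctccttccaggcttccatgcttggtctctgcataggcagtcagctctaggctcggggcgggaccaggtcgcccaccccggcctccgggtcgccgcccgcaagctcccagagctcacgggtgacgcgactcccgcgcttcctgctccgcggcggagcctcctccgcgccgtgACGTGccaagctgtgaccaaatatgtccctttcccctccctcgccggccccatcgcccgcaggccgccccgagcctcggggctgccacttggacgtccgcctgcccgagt
Ldha, chr7:46845554-46845853, plus strand: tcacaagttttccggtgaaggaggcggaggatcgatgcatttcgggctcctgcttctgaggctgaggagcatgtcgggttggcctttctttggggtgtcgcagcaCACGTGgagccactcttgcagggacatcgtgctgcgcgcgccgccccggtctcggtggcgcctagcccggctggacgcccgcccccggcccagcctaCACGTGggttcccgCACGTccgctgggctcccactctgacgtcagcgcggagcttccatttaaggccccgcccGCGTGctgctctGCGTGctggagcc
The Hkdc1 window holds 1 match, after the start, the Pfkfb3 window 1 and the Ldha window 7, where CACGTG counts once on each strand. Of the 16 promoters of the 10 genes, 13 held a match, beside 43.8% of 32851 promoters in the table. The 16 are not independent, since some genes have more than 1, and 2 of those of Aldoa overlap and share a match. The core holds CG, and the G and C content of the 16 was 51.3% to 69.7%, beside a median of 52.7% over all promoters. Its part in these counts was not tested. None of the 16 held TATAAA, which stood in 13.6% of all promoters. A match is a run of letters and says nothing of binding in these mice.

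In control kidneys Hk1, Hk2, Pfkp and Pfkfb3 were higher in both pulldowns than in total RNA, and Pfkl, Aldoa, Pgk1, Pkm and Ldha were lower in both. Values given with a standard error (SE) or an adjusted p are log2 fold changes, or differences of log2 fold changes. Of the 10 genes, 9 differed between the Hoxb7Cre pulldown and total RNA by edgeR's quasi-likelihood test, where 66.6% of all tested genes did, and 10 between the Atp6v1b1Cre pulldown and total RNA, where 63.8% did. By at least 2-fold, 7 and 6 of the 10 differed, beside 32.5% and 27.7% of all genes. Both comparisons used the same 21 total RNA libraries, which may come from the same mice as the pulldowns, and in both the median of all genes was 0.11 on the log2 scale. Tagged RNA covers 4 hours of synthesis and total RNA what had accumulated, so cell type and age of the RNA cannot be told apart here.

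Pfkfb3 stood at 331 ± 75.4 CPM (SD, n = 10) in Hoxb7Cre control pulldowns, 172 ± 56.3 CPM (SD, n = 11) in those of Atp6v1b1Cre mice and 89.9 ± 21.4 CPM (SD, n = 21) in total RNA. Its log2 fold change against total RNA was 1.92 ± 0.13 SE (adjusted p = 2.79e-17) in Hoxb7Cre and 1.00 ± 0.13 SE (adjusted p = 7.64e-09) in Atp6v1b1Cre. It was lower in Atp6v1b1Cre than in Hoxb7Cre pulldowns, at a log2 value of -0.92 ± 0.16 SE (adjusted p = 3.22e-05), though in females alone this was -0.70 (adjusted p = 0.118). Aldoa stood at 282 ± 41.3 CPM (SD, n = 10) in Hoxb7Cre pulldowns, 262 ± 26.7 CPM (SD, n = 11) in those of Atp6v1b1Cre mice and 1109.8 ± 49.1 CPM (SD, n = 21) in total RNA, and no library of either pulldown reached the range of total RNA. Ldha differed between the pulldowns as well, with 267 ± 59.6 CPM (SD, n = 10) in Hoxb7Cre, 166 ± 29.2 CPM (SD, n = 11) in Atp6v1b1Cre and 787 ± 215 CPM (SD, n = 21) in total RNA. The log2 difference of Atp6v1b1Cre from Hoxb7Cre was -0.79 ± 0.09 SE (adjusted p = 3.09e-09).

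Between the pulldowns 3 of the 10 genes differed, Hkdc1, Pfkfb3 and Ldha, beside 9.93% of all genes. Hkdc1, at 2.27 ± 0.531 CPM (SD, n = 10) in Hoxb7Cre and 3.57 ± 0.695 CPM (SD, n = 11) in Atp6v1b1Cre, was higher in the latter on the log2 scale by 0.70 ± 0.16 SE (adjusted p = 0.00175), but in males alone the value was 0.56 (adjusted p = 0.137) and in females alone 0.70 (adjusted p = 0.071). Against total RNA, at 2.56 ± 0.683 CPM (SD, n = 21), Hkdc1 was at a log2 value of -0.14 ± 0.14 SE (adjusted p = 0.381) in Hoxb7Cre and 0.55 ± 0.13 SE (adjusted p = 3.48e-04) in Atp6v1b1Cre. The 10 Hoxb7Cre controls include the 4 male controls of the responses on which Hkdc1 is taken to have been chosen. Its adjusted p values in comparisons that use those male controls are thus not independent of the choice. Macrophage markers moved alongside, 4 of 5 being higher in Atp6v1b1Cre than in Hoxb7Cre control pulldowns, with sums of 77.8 to 149.8 and 42.7 to 92.8 CPM. Intercalated cell markers moved as well, with 4 of 6 higher and 0 lower in Atp6v1b1Cre. Of the 6 principal cell markers, 4 were lower and 0 higher. The part of these lists in the difference of Hkdc1 was not tested.

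Proximal tubule markers also moved with the lower glycolytic genes, 5 of 6 and 6 of 6 being lower in the pulldowns, and their part was not tested. Of 13 other glycolytic enzymes, 11 were lower in each pulldown than in total RNA, where 66.6% of all genes differed in Hoxb7Cre and 63.8% in Atp6v1b1Cre, up or down. Gapdh was at a log2 value of -3.03 ± 0.08 SE (adjusted p = 2.45e-33) in Hoxb7Cre and -3.18 ± 0.08 SE (adjusted p = 9.42e-35) in Atp6v1b1Cre, and Ldhb, the other lactate dehydrogenase subunit, at a log2 value of -2.41 ± 0.06 SE (adjusted p = 4.55e-33) and -2.39 ± 0.06 SE (adjusted p = 9.79e-34). Eno2 was higher in both, and Hk3 in Atp6v1b1Cre. In females alone Hk1 was not called against total RNA, at a log2 value of 0.08 (adjusted p = 0.523) in Hoxb7Cre and 0.12 (adjusted p = 0.429) in Atp6v1b1Cre, and neither were Pfkp, at a log2 value of 0.13 (adjusted p = 0.411), and Hkdc1, at a log2 value of 0.31 (adjusted p = 0.206), in Atp6v1b1Cre. All 4 fructose 2,6-bisphosphate enzymes beside Pfkfb3, namely Pfkfb1, Pfkfb2, Pfkfb4 and Tigar, were higher in both pulldowns. Gluconeogenic genes went the other way, with 7 of 8 lower in Hoxb7Cre and 8 of 8 in Atp6v1b1Cre pulldowns, to be read against the same shares of all genes.

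**Figure D1:**
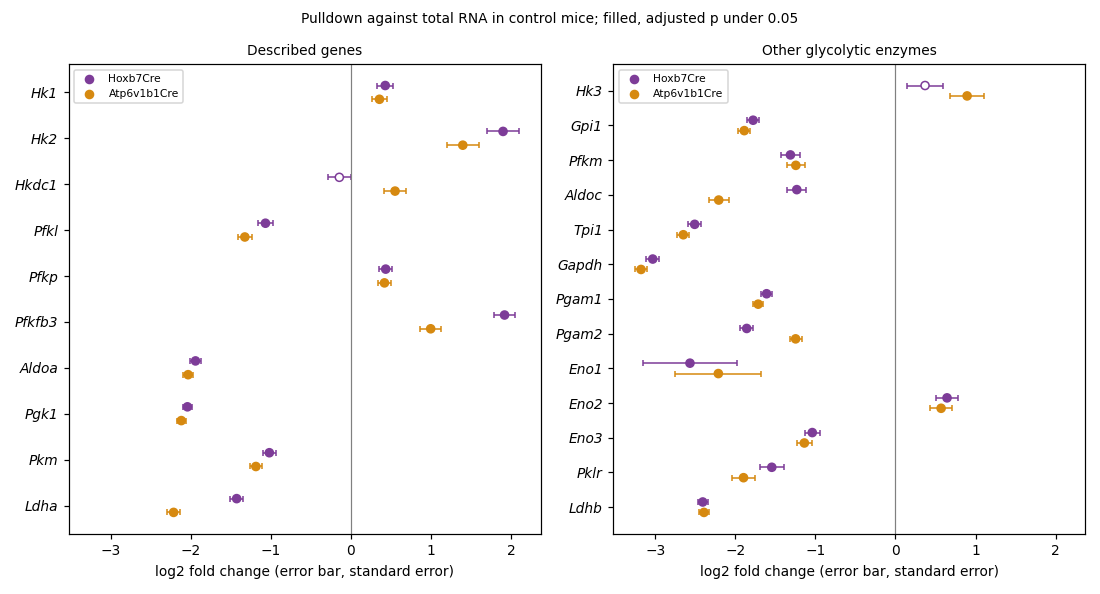
Log2 fold change of control pulldowns against total RNA (horizontal axis) for the 10 genes (left) and 13 other glycolytic enzymes (right), in Hoxb7Cre (purple) and Atp6v1b1Cre (orange) mice, with standard errors and filled points for an adjusted p under 0.05. Pfkfb3 and Hk2 lie farthest to the right of the 10 genes, while Aldoa, Pgk1 and Ldha lie on the left with most of the other enzymes.

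Hk1 was the leading hexokinase in every group. Levels are given per kilobase of merged exons. Tagging acts through uracil, so a pulldown can hold more of transcripts rich in it, which scaling by length leaves in place, whereas total RNA was not pulled down. Hk1 stood at 25.1 ± 5.08 CPM per kb in Hoxb7Cre controls (SD, n = 10), 23.1 ± 4.42 in Atp6v1b1Cre controls (n = 11) and 19.2 ± 3.88 in total RNA (n = 21). Hk2 stood at 4.22 ± 1.796, 3.00 ± 1.39 and 1.17 ± 0.504 CPM per kb, and Hkdc1 at 0.443 ± 0.103, 0.696 ± 0.135 and 0.499 ± 0.133 CPM per kb. The order was thus Hk1, Hk2 and Hkdc1 in each of these groups of controls. Hk3 followed at 0.142 ± 0.0714, 0.210 ± 0.0731 and 0.115 ± 0.0416 CPM per kb. Of the summed level of these 4 genes per kilobase, Hk1 made up 83.5% in Hoxb7Cre, 85.5% in Atp6v1b1Cre and 91.4% in total RNA. The share of Hk2 was 14.6% in Hoxb7Cre and 5.61% in total RNA, and that of Hkdc1 was 1.48%, 2.60% and 2.41%. After ischemia the share of Hkdc1 was 4.79% in Hoxb7Cre males and after volume depletion 0.822%, beside 1.44% in their controls.

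Hkdc1 was read at 2.99, 2.37, 2.02 and 2.30 CPM in the 4 Hoxb7Cre male controls, and at 6.87, 6.07, 7.60 and 5.58 CPM after ischemia. After volume depletion it was at 1.51, 0.905 and 1.15 CPM. These levels rest on few reads, with 41 to 71 counts per library in controls, 139 to 157 after ischemia and 25 to 30 after volume depletion. Each ischemic library lay above each control, and each volume-depleted library below each control. The log2 fold change was 1.44 ± 0.27 SE after ischemia and -1.03 ± 0.32 SE after volume depletion, values for which the gene was chosen. In a fit of both sexes it was -0.08 after volume depletion. The 5 macrophage markers summed to 53.4 to 68.5 CPM in these controls, 57.1 to 70.8 CPM after ischemia and 42.3 to 52.5 CPM after volume depletion, with 1 of 5 higher after ischemia and 1 higher and 2 lower after volume depletion. The 4 injured tubule markers, all of which rose after ischemia, summed to 10.7 to 17.2 CPM in controls and 75.5 to 418 CPM after ischemia. The part of either list in the values of Hkdc1 was not tested.

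The choice of Hkdc1 named no driver. Atp6v1b1Cre males are not taken to have served in it, though their results were known by then. If they did serve, the adjusted p values of Hkdc1 in these males are no test. The gene stood at 3.52, 3.58, 4.20 and 3.82 CPM in controls, at 8.14, 4.95 and 8.17 CPM after ischemia and at 3.77, 2.39, 1.02 and 1.62 CPM after volume depletion. The ischemic libraries lay above the controls, and 1 of the 4 volume-depleted libraries lay within their range. Of the volume-depleted libraries, the higher ones, replicates 1 and 2, belong to the first of the series in which libraries were numbered. The lower ones, replicates 6 and 7, belong to a later series. Hkdc1 rose after ischemia, with a log2 fold change of 0.90 ± 0.28 SE (adjusted p = 0.0476), while after volume depletion it was at a log2 value of -0.73 ± 0.27 SE (adjusted p = 0.0779). The latter was called by DESeq2, at a log2 value of -0.73 (adjusted p = 0.0359), with library series as a covariate, at a log2 value of -0.77 (adjusted p = 0.0419), and with both sexes, at a log2 value of -0.78 (adjusted p = 0.0125). Between ischemia and volume depletion the difference was 1.63 ± 0.29 SE (adjusted p = 2.30e-04), and it was called with any 1 library left out. The rise after ischemia was called in 1 of 7 fits that left out a library, that without iAKI replicate 4, which was the lowest of the 3 ischemic libraries. In the other 6 the adjusted p reached 0.185, without iAKI replicate 1. Macrophage markers summed to 101.4 to 149 CPM in these controls, 75.7 to 138 CPM after ischemia and 68.1 to 97.7 CPM after volume depletion, with none of the 5 called after ischemia and 2 of 5 lower after volume depletion. The 4 injured tubule markers rose, from sums of 4.48 to 14.7 CPM in controls to 19.4 to 473 CPM after ischemia, and the part of either list in the values of Hkdc1 was not tested.

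In females Hkdc1 lay higher after ischemia in both drivers, and the difference was called by edgeR in Hoxb7Cre. Hoxb7Cre females had 2.14, 1.91, 1.27 and 2.28 CPM in controls and 4.33, 3.68 and 4.32 CPM after ischemia, without overlap, at a log2 fold change of 1.12 ± 0.30 SE (adjusted p = 0.0471). That call was kept in 1 of 7 fits that left out a library, without control replicate 1, and the adjusted p reached 0.227 without iAKI replicate 3. The 3 ischemic libraries belong to the first of the series in which libraries were numbered, and 3 of the 4 controls to later ones. With library series as a covariate the value was 1.24 (adjusted p = 0.163), and 23 genes of the table were called in place of 665. Atp6v1b1Cre females had 2.98, 4.27, 2.45 and 4.55 CPM in controls and 7.39, 4.83 and 7.94 CPM after ischemia, at a log2 value of 0.89 ± 0.29 SE (adjusted p = 0.0898) by edgeR and 0.88 (adjusted p = 0.0233) by DESeq2. The 4 injured tubule markers summed to 7.31 to 11.2 CPM in Hoxb7Cre female controls and 31.98 to 94.2 CPM after ischemia, with 1 of 4 called, and to 3.25 to 6.84 and 65.9 to 1113 CPM in Atp6v1b1Cre, with 4 of 4 called. Macrophage markers rose for 2 of 5 in Hoxb7Cre, from 42.7 to 92.8 to 55.7 to 97.7 CPM, and for none in Atp6v1b1Cre, and the part of either list was not tested. After volume depletion the means of the females lay on different sides of those of controls, with 2.78, 3.06, 3.01 and 1.75 CPM in Hoxb7Cre (0.48 ± 0.28 SE, adjusted p = 0.741) and 1.53, 1.73 and 2.78 CPM in Atp6v1b1Cre (-0.83 ± 0.31 SE, adjusted p = 0.0641). Neither was called by edgeR, while DESeq2 gave -0.79 (adjusted p = 0.0404) in Atp6v1b1Cre. In Hoxb7Cre the female response to volume depletion minus the male one was 1.5 ± 0.42 SE on the log2 scale, given without a test since the male values chose the gene.

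The genes whose log2 CPM followed Hkdc1 most closely over the 22 male pulldown libraries of 5.5 months, among 15125 genes with a mean of at least 10 counts, were Ptgfr (Pearson's r = 0.92, Spearman's rho = 0.91), Cd300a (r = 0.92, rho = 0.90), Efcab5 (r = 0.91, rho = 0.83), Parp3 (r = 0.90, rho = 0.94) and Clec5a (r = 0.90, rho = 0.89). The libraries fall into groups by treatment, and these values describe likeness only. Cd300a and Clec5a encode receptors of myeloid cells, and Ptgfr a prostaglandin receptor.

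**Figure D2:**
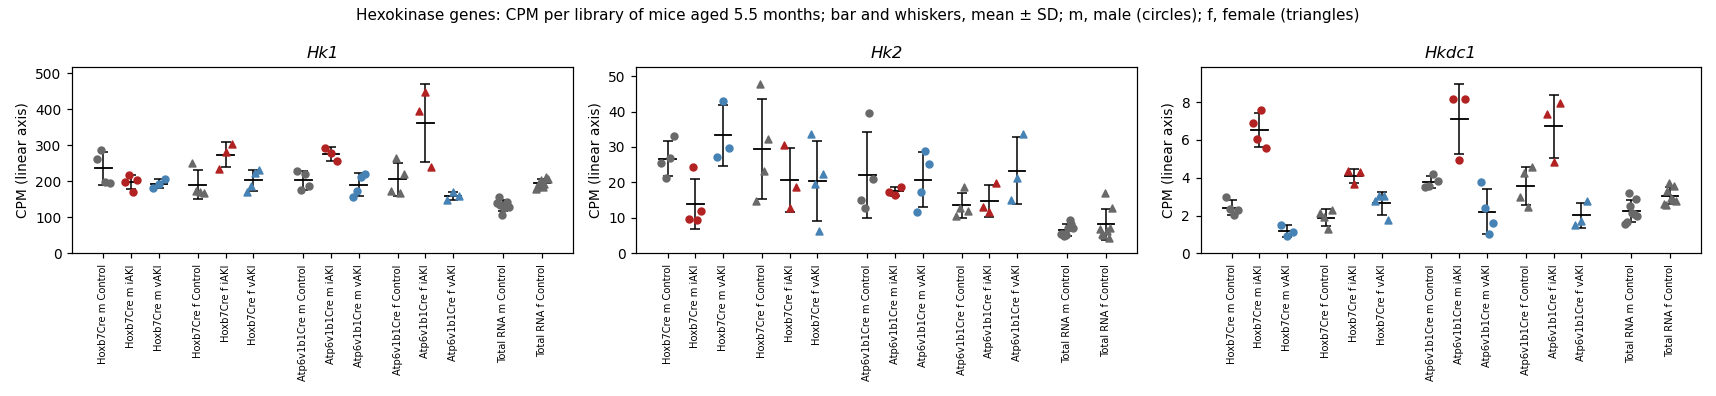
CPM of Hk1, Hk2 and Hkdc1 (linear axes) in each library of mice of 5.5 months, in controls (grey), after ischemia (iAKI, red) and after volume depletion (vAKI, blue), with males as circles and females as triangles and bars for the mean ± SD. Hkdc1 stands higher after ischemia in each of the 4 pairs of driver and sex, while Hk1 and Hk2 overlap in most groups.

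Hk1, the main hexokinase, was read at 263, 287, 199.5 and 195 CPM in Hoxb7Cre male controls, 199, 217, 171 and 204 CPM after ischemia and 182, 192 and 208 CPM after volume depletion. These ranges overlapped, and neither stimulus gave a call (-0.24 ± 0.14 SE, adjusted p = 0.338 and -0.28 ± 0.15 SE, adjusted p = 0.159). In Atp6v1b1Cre males it was at 230.0, 175, 220.1 and 186 CPM in controls, 293, 279.5 and 256 CPM after ischemia and 156, 173, 213 and 221 CPM after volume depletion. All 3 ischemic libraries lay above the others, with a log2 fold change of 0.44 ± 0.15 SE (adjusted p = 0.068) against controls and 0.51 ± 0.15 SE (adjusted p = 0.0117) against volume depletion. The latter was called by edgeR and the former by DESeq2, at a log2 value of 0.43 (adjusted p = 0.0408), but with no other group fitted the latter was 0.51 (adjusted p = 0.0575). The response of Hk1 to ischemia was higher in Atp6v1b1Cre than in Hoxb7Cre males on the log2 scale by 0.68 ± 0.20 SE (adjusted p = 0.0413). That difference was lost in 9 of 15 fits that left out a library and was kept without any 1 of iAKI Hoxb7Cre replicate 5, iAKI Atp6v1b1Cre replicate 5, Hoxb7Cre control replicates 4 and 5 and Atp6v1b1Cre control replicates 6 and 10. Without Hoxb7Cre control replicate 3 it was 0.58 (adjusted p = 0.102), the weakest of the 15. In Atp6v1b1Cre females Hk1 rose from 173, 265, 168 and 219.8 CPM to 397, 447 and 239.7 CPM after ischemia, at a log2 value of 0.79 ± 0.21 SE (adjusted p = 0.0485), with 1 ischemic library inside the control range. Leaving out a library ended this call in 5 of 7 fits, and without iAKI replicate 3 it was 0.61 (adjusted p = 0.248). The fits that kept it were without control replicate 8 and without iAKI replicate 6.

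Hk2, the inducible hexokinase of muscle and fat, varied widely between libraries. Hoxb7Cre male controls had 25.5, 21.2, 26.96 and 33.2 CPM, ischemic libraries 9.84, 24.3, 9.44 and 11.9 CPM and volume-depleted libraries 27.1, 43.02 and 29.6 CPM. Of the 4 ischemic libraries, 3 lay under every control and replicate 5 within their range. The 4 fat markers all fell after each stimulus, from sums of 36.1 to 100.0 CPM in controls to 7.22 to 21.3 CPM after ischemia and 13.7 to 26.2 CPM after volume depletion, and their part in the values of Hk2 was not tested. Ischemia against control gave a log2 fold change of -0.93 ± 0.33 SE (adjusted p = 0.0941), with no call by edgeR, and -0.95 (adjusted p = 0.0406) by DESeq2. Against volume depletion Hk2 was lower after ischemia, at a log2 value of -1.25 ± 0.35 SE (adjusted p = 0.00749), without overlap of the groups, but without vAKI replicate 6 this was -1.03 (adjusted p = 0.0529). Over the alternative fits it ranged from -1.41 to -0.62. Hoxb7Cre females had 29.4 ± 14.1 CPM (SD, n = 4) in controls and 20.8 ± 8.98 CPM (SD, n = 3) after ischemia. After volume depletion they had 20.5 ± 11.3 CPM (SD, n = 4), and neither stimulus gave a call by edgeR against controls. In Atp6v1b1Cre males the values were 15.0, 12.8, 39.6 and 20.9 CPM in controls, 17.2, 16.4 and 18.8 CPM after ischemia and 11.7, 17.3, 28.9 and 25.2 CPM after volume depletion, in overlapping ranges and with no call. Fat markers there summed to 28.6 to 79.8 CPM in controls, 61.2 to 117 CPM after ischemia and 9.38 to 23.9 CPM after volume depletion.

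Ischemia moved few of the genes in Hoxb7Cre males. Of the 9 genes other than Hkdc1, 2 changed, beside 6.13% of all tested genes, and both, Pfkfb3 and Ldha, fell. The median log2 fold change of the 9 was -0.33, beside 0 for all genes, and 8 of the 9 lay below 0. After volume depletion 3 of the 9 changed, Pkm upward and Pfkfb3 and Ldha downward, beside 35.5% of all genes, so that the share called was close to the background. Between ischemia and volume depletion, which were also compared directly, 4 of the 9 differed beside 33.3% of all genes, Hk2, Pfkp, Aldoa and Pkm being lower after ischemia. Ischemia and volume depletion were each set against the same 4 control libraries. Their values did not overlap those of controls for 3 of the 9 genes after ischemia, beside 15.9% of all genes, and for 4 of the 9 after volume depletion, beside 39.5%. A pulldown from a whole kidney cannot tell apart fewer cells of a type and less RNA per cell, and the fall of principal cell markers given above moved with these values. After volume depletion 4 of 6 intercalated cell, 3 of 4 thick ascending limb and 4 of 4 fat markers fell too. There 1 of 4 podocyte and 1 of 4 endothelial markers rose. After ischemia 1 of 6 intercalated cell and 4 of 4 fat markers fell. The part of these lists was not tested.

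In Atp6v1b1Cre males 2 of the 10 genes changed after ischemia, Hkdc1 and Aldoa, both upward, beside 8.51% of all genes. Hkdc1 is counted in these males on the assumption, given above, that they did not serve in its choice. Proximal tubule markers summed to 1978 to 3844 CPM in controls and 937 to 1349 CPM after ischemia, with 2 of 6 lower, and thick ascending limb markers to 1013 to 2033 and 1879 to 3243 CPM, with 1 of 4 higher. Their part in these calls was not tested. After volume depletion Pfkfb3 alone of the 10 changed, upward, beside 14.6% of all genes. Values did not overlap those of controls for 4 of the 10 after ischemia and 2 after volume depletion, beside 20.6% and 14.5% of all genes. Between ischemia and volume depletion 4 of the 10 differed, beside 29.3%, with Hk1, Hkdc1 and Aldoa higher and Pfkfb3 lower after ischemia. The drivers were compared by the difference of their responses. For ischemia 4 of the 9 genes other than Hkdc1 differed, Hk1, Pfkl, Aldoa and Ldha, all with a higher response in Atp6v1b1Cre, beside 7.79% of all genes. For volume depletion Pfkfb3 alone of the 9 differed, beside 4.2%.

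**Figure D3:**
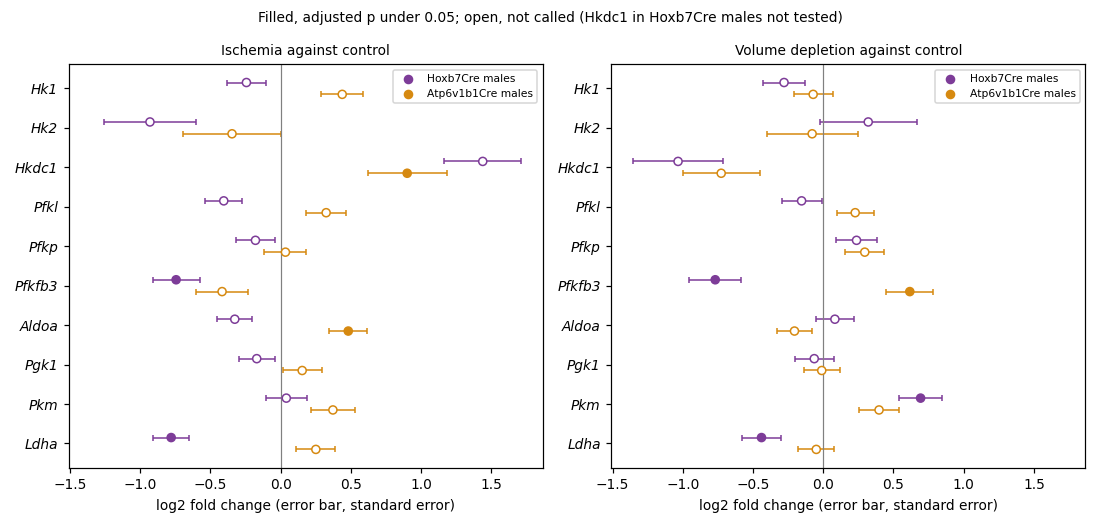
Log2 fold change after ischemia (left) and after volume depletion (right) against controls (horizontal axes) for the 10 genes in Hoxb7Cre (purple) and Atp6v1b1Cre (orange) males, with standard errors and filled points for an adjusted p under 0.05. After ischemia the orange points of Hk1, Pfkl, Aldoa and Ldha lie to the right of the purple ones, and after volume depletion the points of Pfkfb3 lie on opposite sides of 0.

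Pfkfb3, whose product activates phosphofructokinase, differed between the drivers in its response to volume depletion. In Hoxb7Cre males it stood at 391, 347, 468 and 327 CPM in controls, 262, 224, 241 and 179 CPM after ischemia and 225, 232 and 215 CPM after volume depletion. Every library of either stimulus lay below every control. It fell by 0.74 on the log2 scale after ischemia (± 0.17 SE, adjusted p = 0.0107) and by 0.77 after volume depletion (± 0.18 SE, adjusted p = 0.00216). Both calls held with any 1 library left out and with library series as a covariate. In Atp6v1b1Cre males the gene went from 100.3, 129, 178 and 196 CPM in controls to 119.9, 103.6 and 118 CPM after ischemia and to 214, 245, 205 and 253 CPM after volume depletion. The volume-depleted libraries lay above every control, and the ischemic ones among the lower controls. Pfkfb3 rose after volume depletion, at a log2 value of 0.62 ± 0.17 SE (adjusted p = 0.0165), while ischemia gave a log2 fold change of -0.42 ± 0.18 SE (adjusted p = 0.16). The rise was not called without control replicate 6, at a log2 value of 0.46 (adjusted p = 0.071), without control replicate 9, at a log2 value of 0.55 (adjusted p = 0.0566), or without vAKI replicate 7, at a log2 value of 0.56 (adjusted p = 0.0616). It was also lost with the 3 controls of 3 months added, at a log2 value of 0.49 (adjusted p = 0.0507), with both sexes, at a log2 value of 0.44 (adjusted p = 0.0505), and with only the groups compared in the fit, at a log2 value of 0.61 (adjusted p = 0.0917). The difference between ischemia and volume depletion, -1.03 ± 0.19 SE (adjusted p = 2.65e-04), and that between the responses of the drivers to volume depletion, 1.39 ± 0.25 SE (adjusted p = 0.00271), held with any 1 library left out. In Atp6v1b1Cre males intercalated cell markers summed to 727 to 980.4 CPM in controls and 476 to 629.8 CPM after volume depletion. Of the 6, 3 fell, beside 14.6% of all genes changed up or down, and their part in the values of Pfkfb3 was not tested.

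In Hoxb7Cre females the mean of Pfkfb3 was lower after either stimulus, with no call by edgeR. Hoxb7Cre females had 351, 237, 348 and 359 CPM in controls, 168, 161 and 139 CPM after ischemia and 153, 172, 130.0 and 247 CPM after volume depletion, at a log2 value of -1.05 ± 0.30 SE (adjusted p = 0.0541) and -0.89 ± 0.27 SE (adjusted p = 0.329). The value after ischemia was called by DESeq2, at a log2 value of -1.06 (adjusted p = 0.0124), and with filterByExpr, at a log2 value of -1.06 (adjusted p = 0.0487). Principal cell markers, which fell in males, summed to 1104 to 2434 CPM in these controls and 1438 to 2854 CPM after ischemia, with none of the 6 called. Atp6v1b1Cre females had 203, 95.6, 248 and 186 CPM in controls, 93.7, 75.03 and 170.4 CPM after ischemia and 276, 206 and 201 CPM after volume depletion, at a log2 value of -0.72 ± 0.29 SE (adjusted p = 0.172) and 0.32 ± 0.29 SE (adjusted p = 0.481).

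Pfkl, the liver type subunit, and Pfkp, the platelet type subunit, were called by edgeR after neither stimulus in males. In Hoxb7Cre males Pfkl ranged over 51.5 to 70.9 CPM in controls, 36.2 to 47.3 CPM after ischemia and 49.0 to 56.4 CPM after volume depletion. The ischemic libraries lay below the controls, at a log2 value of -0.41 ± 0.13 SE (adjusted p = 0.0709) by edgeR and -0.42 (adjusted p = 0.0276) by DESeq2. In Atp6v1b1Cre males it ranged over 40.3 to 51.7, 44.8 to 68.8 and 47.4 to 56.1 CPM, with 0.32 ± 0.14 SE (adjusted p = 0.161) after ischemia. Neither response was called by edgeR, while their difference was, at a log2 value of 0.73 ± 0.19 SE (adjusted p = 0.0238). It was lost in 5 of 15 fits, without iAKI Hoxb7Cre replicate 6, iAKI Atp6v1b1Cre replicate 1, Hoxb7Cre control replicate 3 and Atp6v1b1Cre control replicates 9 and 11, with the weakest value, 0.58 (adjusted p = 0.0966), without iAKI Atp6v1b1Cre replicate 1. Pfkp ranged over 118 to 137, 99.1 to 119.5 and 139.8 to 161 CPM in Hoxb7Cre males. It was lower after ischemia than after volume depletion, at a log2 value of -0.42 ± 0.15 SE (adjusted p = 0.034). This call was lost without iAKI replicates 6 or 7 or vAKI replicates 4 or 7, and was -0.38 (adjusted p = 0.109) without vAKI replicate 4. In Atp6v1b1Cre males Pfkp ranged over 119 to 144, 123 to 153 and 119 to 201 CPM with no call.

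Aldoa, which splits fructose 1,6-bisphosphate, rose after ischemia in Atp6v1b1Cre males. It was at 263, 268, 242 and 240.1 CPM in controls, 367, 392 and 309 CPM after ischemia and 202, 205, 237 and 225 CPM after volume depletion. The 3 ischemic libraries stood above all others of the driver, at a log2 value of 0.48 ± 0.13 SE (adjusted p = 0.0276) against controls and 0.69 ± 0.13 SE (adjusted p = 5.65e-04) against volume depletion. The former call was kept without control replicate 6 or iAKI replicate 5 and lost without any 1 of the other 5 libraries, the weakest being 0.42 (adjusted p = 0.118) without iAKI replicate 4, whereas the latter held in each such fit. In Hoxb7Cre males Aldoa was at 239, 297, 326 and 301 CPM in controls, 220.0, 243, 206 and 249 CPM after ischemia and 239, 333 and 348 CPM after volume depletion. Ischemia gave a log2 fold change of -0.33 ± 0.13 SE (adjusted p = 0.126), with no call. The ischemic and volume-depleted ranges overlapped, while the mean after ischemia was lower, at a log2 value of -0.41 ± 0.13 SE (adjusted p = 0.0211), a call lost without iAKI replicates 4 or 6 or vAKI replicates 6 or 7 and at a log2 value of -0.31 (adjusted p = 0.138) without vAKI replicate 7. The response to ischemia differed between the drivers on the log2 scale by 0.81 ± 0.18 SE (adjusted p = 0.0109), which was called with any 1 library left out. The annotation holds another gene with the symbol Aldoa, and the counts do not say how its reads were assigned.

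Ldha fell in Hoxb7Cre males after both stimuli. Controls had 263, 307, 381 and 349 CPM, ischemic libraries 184, 192, 192 and 182 CPM and volume-depleted libraries 217, 242 and 258 CPM. All ischemic and volume-depleted libraries lay below the controls, and the ischemic ones below the volume-depleted ones. Between the stimuli the difference was -0.34 ± 0.14 SE (adjusted p = 0.0624), not called by edgeR, and -0.37 (adjusted p = 0.0248) by DESeq2. The fall after ischemia was -0.78 ± 0.13 SE (adjusted p = 0.00159) and was called with any 1 library left out. That after volume depletion, -0.44 ± 0.14 SE (adjusted p = 0.0169), was not called without vAKI replicate 4, at a log2 value of -0.38 (adjusted p = 0.083), or without control replicate 4, at a log2 value of -0.35 (adjusted p = 0.0611), nor in a fit of both sexes, at a log2 value of -0.34 (adjusted p = 0.0626). In Atp6v1b1Cre males Ldha was at 197, 223, 145 and 159 CPM in controls, 239.6, 201 and 208 CPM after ischemia and 162, 177, 175 and 177 CPM after volume depletion. Controls spanned most of this range, and ischemia gave a log2 fold change of 0.25 ± 0.14 SE (adjusted p = 0.279). The responses to ischemia differed between the drivers on the log2 scale by 1.03 ± 0.19 SE (adjusted p = 0.00397), with Hoxb7Cre lower, and this held with any 1 library left out.

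Pkm rose after volume depletion in Hoxb7Cre males. It went from 176, 194, 211 and 212 CPM in controls to 299, 341 and 319 CPM, while the ischemic libraries had 179.7, 248, 183 and 198 CPM. The volume-depleted libraries stood above all others, at a log2 value of 0.69 ± 0.15 SE (adjusted p = 0.00119) against controls, and ischemia against volume depletion was -0.65 ± 0.15 SE (adjusted p = 0.00219). Both were called with any 1 library left out, and in a fit of both sexes the former was 0.37 (adjusted p = 0.0767). In Atp6v1b1Cre males Pkm ranged over 179.9 to 215 CPM in controls and 172 to 293 CPM after volume depletion, at a log2 value of 0.40 ± 0.14 SE (adjusted p = 0.0669), with no call by edgeR. It was called by DESeq2, at a log2 value of 0.40 (adjusted p = 0.0366), and with both sexes in the fit, at a log2 value of 0.58 (adjusted p = 0.00232), with library series as a covariate and with the controls of 3 months added. Counts do not separate the Pkm1 and Pkm2 forms. Pgk1 was called after neither stimulus in males of either driver, with log2 fold changes of -0.17 in Hoxb7Cre and 0.15 in Atp6v1b1Cre after ischemia, and of -0.06 and -0.01 after volume depletion. Pgk1, Pkm and Ldha share 68.8%, 65.5% and 55% of their longest transcript with near-identical copies elsewhere in the genome, mostly pseudogenes, at 95% identity or more over at least 100 bases. Reads that align equally well to such a copy were not counted, so the levels of these genes are uncertain.

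**Figure D4:**
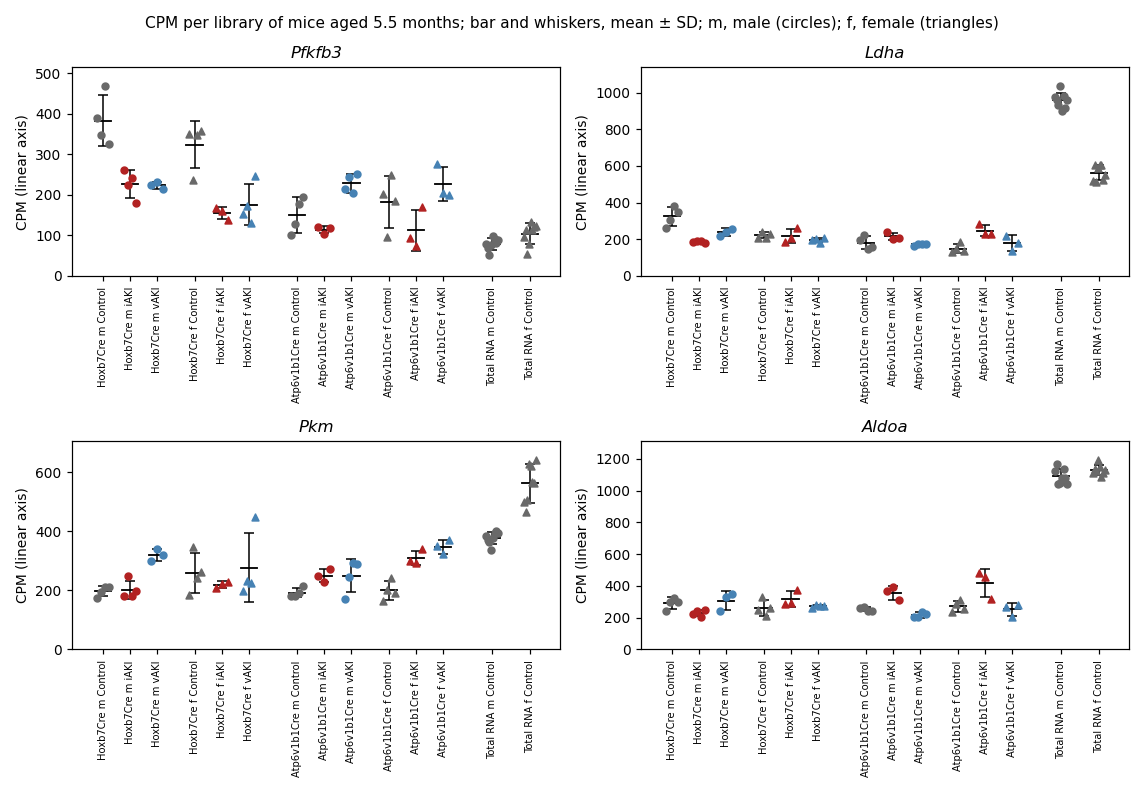
CPM of Pfkfb3, Ldha, Pkm and Aldoa (linear axes) in each library of mice of 5.5 months, in controls (grey), after ischemia (iAKI, red) and after volume depletion (vAKI, blue), with males as circles and females as triangles and bars for the mean ± SD. Among controls, total RNA has higher means of Ldha, Pkm and Aldoa than either pulldown, and a lower mean of Pfkfb3. Ischemic Atp6v1b1Cre libraries overlap total RNA in Pfkfb3. For Pkm, volume-depleted Hoxb7Cre female replicate 5, at 450 CPM, lies above the mean of total RNA in males.

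The sexes were compared within each driver. In Hoxb7Cre 3 of the 9 genes other than Hkdc1 differed in their response to ischemia, Hk1, Pfkl and Ldha, all higher in females, beside 10.5% of all genes. The female response minus the male one was 0.76 ± 0.25 SE (adjusted p = 0.0445) for Hk1, 0.89 ± 0.24 SE (adjusted p = 0.0166) for Pfkl and 0.75 ± 0.21 SE (adjusted p = 0.0211) for Ldha. For Ldha, female controls had 207, 239, 209 and 230.3 CPM and ischemic females 186, 205 and 259 CPM, in overlapping ranges, where males had fallen. Cell type markers moved with the sexes as well. Thick ascending limb markers summed to 981 to 2369 CPM in female controls and 3095 to 4220.0 CPM after ischemia, with 1 of 4 higher, and to 1375 to 2374 and 1821 to 2056 CPM in males, with none called. Principal cell markers fell after ischemia for 5 of 6 in males and none in females, and the part of these lists was not tested. Leaving out iAKI female replicate 3 ended the calls of Ldha, at a log2 value of 0.59 (adjusted p = 0.125), and of Pfkl, at a log2 value of 0.78 (adjusted p = 0.0893), and leaving out male control replicate 3 ended that of Pfkl, at a log2 value of 0.79 (adjusted p = 0.0529). The call of Hk1 was lost in 11 of 15 such fits and was kept without iAKI replicate 1 or without control replicates 1, 4 or 5. The ischemic Hoxb7Cre females belong to the first library series and most of their controls to later ones, so sex and series are partly mixed here. With library series as a covariate 2 of the 9 genes were called, and the call of Hk1 was lost. In response to volume depletion none of the 9 differed between the sexes in Hoxb7Cre by edgeR's test, beside 16% of all genes, with 1 at an unadjusted p under 0.05 and 0 called by DESeq2. In Atp6v1b1Cre no gene of the table was called by edgeR for either stimulus (0% of genes), and of the 10 genes DESeq2 called 0 for ischemia and 0 for volume depletion. Of the 10 genes 1 and 0 were at an unadjusted p under 0.05, with 676 genes of the table at an unadjusted p under 0.05 for ischemia and 1756 for volume depletion.

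Within females, Hkdc1 alone of the 10 genes changed after ischemia in Hoxb7Cre, beside 3.14% of all genes. None did after volume depletion by edgeR, beside 0.109%, nor by DESeq2, with 1 of the 10 and 1675 of all genes at an unadjusted p under 0.05. In Atp6v1b1Cre females Hk1 and Ldha rose after ischemia, by edgeR, beside 2.66% of all genes. Of the 10 genes, 9 were at an unadjusted p under 0.05, as were 4264 of the 21175 genes tested, and DESeq2 called 6. Ldha went from 132, 144, 184 and 139 CPM in controls to 281, 231 and 231 CPM, at a log2 value of 0.71 ± 0.17 SE (adjusted p = 0.0316). That call was kept without control replicate 12 or iAKI replicate 6 and lost without any 1 of the other 5 libraries, at a log2 value of 0.61 (adjusted p = 0.159) without iAKI replicate 2. After volume depletion Pkm rose in Atp6v1b1Cre females, 1 of the 10 genes beside 18% of all, from 166, 202, 243 and 191 CPM in controls to 350.4, 323 and 370.1 CPM, at a log2 value of 0.80 ± 0.23 SE (adjusted p = 0.0231). The groups did not overlap. The call was kept without control replicate 12 or vAKI replicate 4 and lost without any 1 of the other 5 libraries, the highest adjusted p being 0.0656 without vAKI replicate 3.

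**Figure D5:**
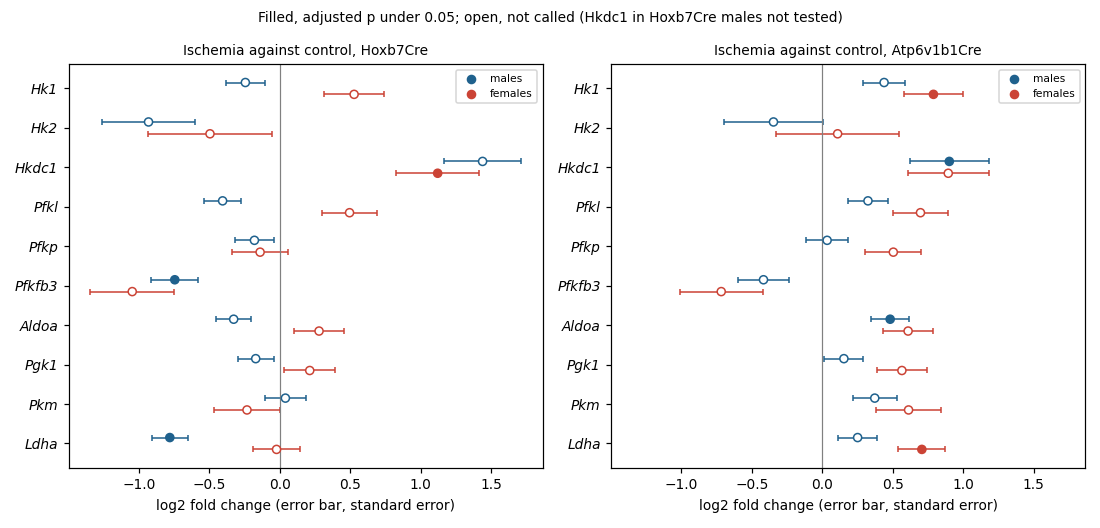
Log2 fold change after ischemia against controls (horizontal axes) for the 10 genes in males (blue) and females (red) of Hoxb7Cre (left) and Atp6v1b1Cre (right) mice, with standard errors and filled points for an adjusted p under 0.05. In Hoxb7Cre the female points of Hk1, Pfkl and Ldha lie to the right of the male ones, and Hkdc1 lies right of 0 in all 4 groups.

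Total kidney RNA of control mice also differed between the sexes, a comparison chosen after its values were seen. Of the 10 genes, 7 were called in mice of 5.5 months, beside 25.4% of all genes, with 6 higher and Ldha lower in females, and 7 again with the mice of 3 months added, beside 31.7%. Ldha was at 564 ± 41.7 CPM (SD, n = 8) in females and 957 ± 42.1 CPM (SD, n = 8) in males, at a log2 value of -0.73 ± 0.05 SE (adjusted p = 4.67e-09) as females minus males. The female libraries lay at 513 to 606 CPM and the male ones at 901 to 1033 CPM. Proximal tubule markers summed to 8466 to 14230.0 CPM in these females and 12480.0 to 16040.0 CPM in the males, and thick ascending limb markers to 7511 to 11130.0 and 6918 to 8178 CPM, and their part was not tested. Pkm stood at 562 ± 66.1 CPM (SD, n = 8) in females and 378 ± 21.1 CPM (SD, n = 8) in males, at a log2 value of 0.61 ± 0.07 SE (adjusted p = 2.70e-06). Hk1 stood at 194 ± 11.9 CPM (SD, n = 8) and 133 ± 14.5 CPM (SD, n = 8), at a log2 value of 0.58 ± 0.07 SE (adjusted p = 2.97e-06), and Pfkp at 119 ± 14.6 CPM (SD, n = 8) and 85.7 ± 7.93 CPM (SD, n = 8), at a log2 value of 0.51 ± 0.08 SE (adjusted p = 7.20e-05). Pfkl, Hkdc1 and Pfkfb3 were also higher in females, while Hk2, Aldoa and Pgk1 were not called.

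Other genes of the path were counted by lists in males. Over all genes, 6.13% were called after ischemia in Hoxb7Cre and 8.51% in Atp6v1b1Cre, and 35.5% and 14.6% after volume depletion. Of 13 other glycolytic enzymes, 1 rose and 3 fell after ischemia in Hoxb7Cre. Tpi1 (triose phosphate isomerase) was at a log2 value of -0.52 ± 0.11 SE (adjusted p = 0.00828) and Eno2 (an enolase) at a log2 value of 0.86 ± 0.20 SE (adjusted p = 0.0119). After volume depletion 1 rose and 4 fell, with the glyceraldehyde phosphate dehydrogenase gene Gapdh at a log2 value of 0.71 ± 0.14 SE (adjusted p = 4.67e-04). In Atp6v1b1Cre 2 rose after ischemia, Eno2 at a log2 value of 0.93 ± 0.21 SE (adjusted p = 0.00912) and Aldoc at a log2 value of 0.63 ± 0.18 SE (adjusted p = 0.0332), and after volume depletion Pklr rose and Pgam2 fell. The isozyme of Pfkfb3 encoded by Pfkfb4 fell in Atp6v1b1Cre males after ischemia, at a log2 value of -1.20 ± 0.24 SE (adjusted p = 0.00486), and after volume depletion, at a log2 value of -0.96 ± 0.22 SE (adjusted p = 0.00576), where Pfkfb3 rose. In Hoxb7Cre males none of the other 4 genes of that list was called after ischemia by edgeR, and Pfkfb1 and Pfkfb2 fell after volume depletion.

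Of 10 glucose and lactate transporters, 3 rose and 3 fell in Hoxb7Cre males after volume depletion, which called 35.5% of all genes there and 14.6% in Atp6v1b1Cre. Slc2a1 and Slc2a3, which take up glucose, were at a log2 value of 1.15 ± 0.18 SE (adjusted p = 3.98e-05) and 1.52 ± 0.24 SE (adjusted p = 3.43e-05), and Slc2a4, the insulin-responsive transporter of muscle and fat, was at a log2 value of -0.95 ± 0.16 SE (adjusted p = 7.77e-05). In Atp6v1b1Cre none rose and Slc2a4 and Slc16a7 fell, and after ischemia Slc2a4 fell in Hoxb7Cre while none of the 10 was called in Atp6v1b1Cre. Fat markers fell too, 4 of 4 in Hoxb7Cre after each stimulus and 2 of 4 in Atp6v1b1Cre after volume depletion, and their part in the values of Slc2a4 was not tested. Among 13 genes of pyruvate entry to mitochondria, 5 rose and 1 fell in Hoxb7Cre and 2 rose and 1 fell in Atp6v1b1Cre after volume depletion, when Pdk4, a brake on pyruvate dehydrogenase, was at a log2 value of 1.55 ± 0.30 SE (adjusted p = 2.95e-04) and 2.24 ± 0.29 SE (adjusted p = 4.13e-05). After ischemia 2 of the 13 fell in each driver. Of 7 regulators of glucose use, 4 rose after volume depletion in each driver, Myc, Mlxip, Txnip and Arrdc4, of which Txnip, an inhibitor of glucose uptake, was at a log2 value of 2.35 ± 0.39 SE (adjusted p = 6.17e-05) and 1.88 ± 0.36 SE (adjusted p = 0.00167). After ischemia none of the 7 was called in Hoxb7Cre, and Epas1, Mlxip and Mlxipl fell in Atp6v1b1Cre. Of 9 glycogen genes, 4 fell in Hoxb7Cre and 3 in Atp6v1b1Cre after volume depletion, Gyg, Gbe1 and Ugp2 in both, and Pgm1 rose in Hoxb7Cre. Of 8 pentose phosphate genes, 1 rose and 1 fell in Hoxb7Cre and 1 fell in Atp6v1b1Cre after volume depletion, and G6pdx and Taldo1 rose in Atp6v1b1Cre after ischemia. Among 8 gluconeogenic genes, Pck1 and Pck2 rose in Hoxb7Cre after volume depletion and Slc37a4 fell in Atp6v1b1Cre, while after ischemia Fbp2 rose in Hoxb7Cre and Pcx fell in Atp6v1b1Cre.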

How the data were processed

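RNA of mouse kidney was sequenced in 69 libraries, 48 of pulled-down tagged RNA and 21 of total RNA, which were grouped by title, sex and age. The authors deposited counts of reads for each gene without any normalization. Per the labels and the study's methods, reads were handled with CASAVA 1.8.2 and Trimmomatic 0.36, aligned to mm10 with STAR 2.5.3a and counted with HTSeq 0.6.1p2 at default settings, which leave out reads that align to several places. The annotation used for counting is not given in the sources used here. Positions were taken from GENCODE M21 (GRCm38) and promoters from RefSeq (GRCm38.p6).

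Genes with at least 2 counts over all libraries (21175 of 24411) were tested with edgeR 4.0.16 in R 4.3.3, by its quasi-likelihood test with TMM normalization and Benjamini-Hochberg adjustment over all tested genes, and were called at an adjusted p under 0.05. Stimuli were compared with controls in 22 males and in 21 females of 5.5 months, the drivers in the males, the sexes in these 43 libraries together, and pulldowns with total RNA in 42 controls with sex as a covariate. Total RNA of both genotypes served for each driver, and pulldown and total RNA libraries were not paired. CPM were scaled by TMM over all 69 libraries, log2 CPM used a prior count of 2, and levels were set against each other per kilobase of merged exons. Totals of 12618062 to 30305464 counts per library limit precision mainly for genes of few counts. Near-identical copies were sought with BLAST 2.17.0. The fits were tested on simulated data.

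The members and the lists were chosen with earlier results of these data known. By rule, all 10 genes are described, other lists are given by counts with values for at most the 4 genes of smallest adjusted p in a comparison, Hk3 is added, and the 5 genes most like Hkdc1 are those of highest Pearson's r over the 22 male pulldowns. Alternatives were DESeq2 1.42.0, DESeq2's size factors, filterByExpr, no filter, a 2-fold threshold, both sexes, 1 sex alone, mice of 3 months added or left out, only the groups compared, the series in which libraries were numbered, the replicate number as a block, and each library left out. Some genes of the lists are not reported here. The comparison of the sexes in total RNA was added after its values were seen.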

Additional observations from a re-analysis of the deposited data

Results flagged for a closer look

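In groups of 4 to 10 libraries, 100 combinations of gene and group were examined for a library far from the others, by Dixon's criterion at 95%, and 9 met it, where chance gives about 1 in 20. Hk1 was highest, at 252.0 CPM, in replicate 1 of the Hoxb7Cre female controls. Hk2 was highest, at 24.3 CPM, in replicate 5 of the ischemic Hoxb7Cre males. Pfkl was highest, at 51.7 CPM, in replicate 6 of the Atp6v1b1Cre male controls. Pfkfb3 was lowest, at 237 CPM, in replicate 6 of the Hoxb7Cre female controls. Pgk1 was highest, at 86.6 CPM, in replicate 6 of the ischemic Hoxb7Cre males, and at 98.2 CPM in replicate 3 of the Hoxb7Cre controls of both sexes. Pkm was highest, at 450.0 CPM, in replicate 5 of the volume-depleted Hoxb7Cre females, and at 347 CPM in replicate 6 of the Hoxb7Cre controls of both sexes. Ldha was lowest, at 162 CPM, in replicate 1 of the volume-depleted Atp6v1b1Cre males.

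Responses of the following genes differed between groups by edgeR's test of the difference of log2 fold changes. In males the response to ischemia was higher in Atp6v1b1Cre than in Hoxb7Cre by 0.68 for Hk1, 0.73 for Pfkl, 0.81 for Aldoa and 1.03 for Ldha on the log2 scale. The response to volume depletion was higher in Atp6v1b1Cre by 1.39 for Pfkfb3. In Hoxb7Cre the response to ischemia was higher in females than in males by 0.76 for Hk1, 0.89 for Pfkl and 0.75 for Ldha.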

How the results depend on the processing

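No called value of the 10 genes changed sign under any alternative tried. Counts of called genes moved as follows. DESeq2 called 4 of 9 after ischemia in Hoxb7Cre males, 3 of 10 after volume depletion in Atp6v1b1Cre males, 2 after ischemia in Hoxb7Cre females, and 6 and 2 in Atp6v1b1Cre females after ischemia and volume depletion. Fitting both sexes, with a term for sex, called 1 after volume depletion in Hoxb7Cre, 8 and 2 in Atp6v1b1Cre after ischemia and volume depletion, 1 and 7 between the stimuli in Hoxb7Cre and Atp6v1b1Cre, and 2 in the difference of the drivers for ischemia. With the 3 controls of 3 months added, 5 were called after ischemia in Atp6v1b1Cre males. After ischemia in females, edgeR's filterByExpr gave 2 in Hoxb7Cre and 4 in Atp6v1b1Cre, no filter gave 0 and 1, and DESeq2's size factors gave 1 in Atp6v1b1Cre. Library series as a covariate gave 0 after ischemia in Hoxb7Cre females and 3 after volume depletion in Atp6v1b1Cre males, where a fit of only the groups compared gave 0. Between the pulldowns 1 gene was called in females alone. Asking also for a 2-fold change left 0 genes after either stimulus in males of either driver and in Atp6v1b1Cre females and 0 between the pulldowns, 1 and 2 between the stimuli in Hoxb7Cre and Atp6v1b1Cre males, 1 in the difference of the drivers for ischemia, and 6 between the Atp6v1b1Cre pulldown and total RNA. Apart from the stricter fold change, the cause was not tested.

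With 1 library left out at a time, 2 to 3 and 2 to 3 genes were called in Hoxb7Cre males after ischemia and volume depletion, 0 to 2 and 0 to 4 in Atp6v1b1Cre males, 0 to 3 and 0 to 0 in Hoxb7Cre females and 0 to 7 and 0 to 2 in Atp6v1b1Cre females. Between the stimuli the range was 2 to 4 in Hoxb7Cre and 4 to 5 in Atp6v1b1Cre males. In the difference of the drivers it was 2 to 4 for ischemia and 1 to 1 for volume depletion, and in that of the sexes 0 to 3 and 0 to 1 in Hoxb7Cre and 0 to 0 and 0 to 0 in Atp6v1b1Cre.

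Replicate numbers did not pair the libraries. In Hoxb7Cre males, deviations from the group means correlated at -0.08 on average over 6 pairs of equal number, and 0 of 9 libraries lay closest to their own number. With the replicate number as a block, 3, 3 and 3 genes were called in Hoxb7Cre males after ischemia, after volume depletion and between the stimuli, and 0, 1 and 4 in Atp6v1b1Cre males. The block gave 0 and 1 in the differences of the drivers for ischemia and volume depletion and 0 and 0 in Hoxb7Cre females. Over all genes the block took the calls after ischemia from 1803 to 0 in Atp6v1b1Cre males and from 1298 to 878 in Hoxb7Cre males. With the block Hkdc1 in Hoxb7Cre males was at 1.76 after ischemia and -0.64 after volume depletion, as log2 fold changes. In Atp6v1b1Cre females the block left no comparison that could be estimated, and for the sexes and the controls no block was fitted. Depth limits what can be said of genes of few counts.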
